A study of Homo sapiens with 6 samples.

Results

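Cells sense oxygen through the hypoxia-inducible factors. An oxygen-labile α subunit, HIF-1α (gene HIF1A) or HIF-2α (gene EPAS1), pairs with the stable β subunit encoded by ARNT and switches on genes of blood vessel growth, glucose use and pH control. When oxygen is present, the prolyl hydroxylases encoded by EGLN1, EGLN2 and EGLN3 mark the α subunit, the VHL protein recruits a ubiquitin ligase to it, and the asparaginyl hydroxylase encoded by HIF1AN blocks its coactivator contact. VEGFA and ADM, which encode the angiogenic growth factor VEGF-A and the vasoactive peptide adrenomedullin, are textbook targets of the pathway. These 10 genes were looked up by symbol, and all 10 were found among the 22933 gene symbols of the table.

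RNA-Seq was performed on PC-3 cells, an established human line of metastatic prostate adenocarcinoma. Both groups carried the rtTA2 transactivator, selected with G418, and a second retrovirus whose tdTomato marker was used to sort the cells. In the tdTom group this second vector was pRetroX-Tight-pPGK-tdTomato, and in the TTP-tdTom group it was pRetroX-Tight-TTP-pPGK-tdTomato, which places tristetraprolin (TTP), an RNA-binding protein that promotes mRNA decay, under the Dox-dependent Tight promoter. Each group had 3 samples, all collected after 4 h in 300 ng/ml doxycycline (Dox). Both groups are transduced and sorted populations, and an untreated or non-transduced sample was not analysed here.

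The table holds 1 FPKM value (fragments per kilobase of transcript and library size) per group at each locus. The 3 samples of a group are already combined in that value, so no spread between replicates can be given, the fragments behind each value are unknown, and every difference below is a description without a test. In bulk samples fewer cells of a type and less RNA per cell cannot be told apart. ZFP36, the gene of TTP, had 5.56 FPKM in tdTom and 5.54 in the other group, so the values at the ZFP36 locus did not show the transgene. The second group is therefore called the group labelled TTP-tdTom, and every direction given here rests on that label. The epithelial keratin genes KRT8 and KRT18 were at 20.9 and 98.2 FPKM in tdTom and at 19.1 and 91.5 in the labelled TTP-tdTom group. CDH1, the epithelial cadherin gene, was at 0.119 and 0.390. Among genes of other cell types, PTPRC and PECAM1 were below an FPKM of 1 in both groups, COL1A1 was at 4.34 and 4.56 and ALB at 1.98 and 1.12.

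Of the hypoxia genes, those for the oxygen-labile subunits and for VEGF-A had the lowest ratios. HIF1A was 2.69-fold lower, VEGFA 3.11-fold lower and EPAS1 2.38-fold lower in the group labelled TTP-tdTom, whereas the genes for the VHL protein, for EGLN2 and for adrenomedullin were within 1.15-fold of their tdTom level. HIF1AN was 1.21-fold higher. A ratio was set against other genes only where the FPKM was above 0 in both groups and averaged at least 1, which held for 12511 gene symbols and for 8 of the 10 hypoxia genes. EPAS1 and EGLN3 were below that level and are left out of the counts and medians of ratios given here, and their own ratios rest on values close to or under an FPKM of 1. Of the 8, HIF1A and VEGFA were lower by at least 2-fold and 0 were higher by at least 2-fold. HIF1A was no longer past 2-fold relative to symbols of like GC content (-0.67), and VEGFA was not compared at a mean FPKM of at least 10, both settings chosen after seeing the data. Over all 12511 symbols, 8.30% were lower and 1.22% higher by at least 2-fold.

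The whole transcriptome leaned to lower values. The median log2 ratio of FPKM, labelled TTP-tdTom over tdTom, was -0.24 over the 12511 symbols, which corresponds to 84.7% of the tdTom level, and 79.9% of the symbols had a log2 ratio below 0. For the 8 hypoxia genes the median log2 ratio was -0.36. Of these genes, 7 were below 0 and 4 (VEGFA, HIF1A, ARNT and EGLN1) were below the median of all symbols. Of all symbols past 2-fold, 87.2% were lower, a share that was 70.1% after centring on the median.

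**Figure D1:**
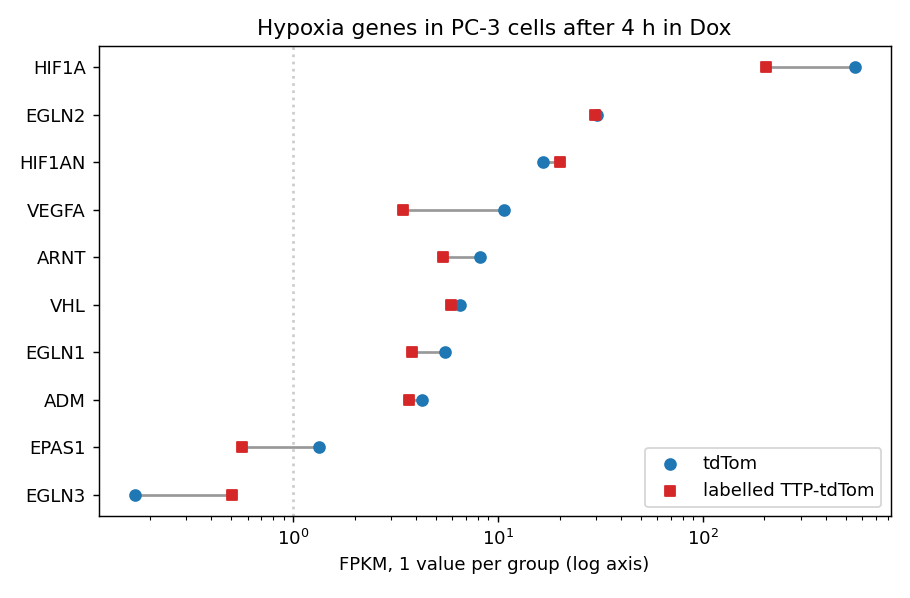
FPKM of the 10 hypoxia genes on a log axis, 1 point per group (circle, tdTom; square, labelled TTP-tdTom), ordered by the tdTom value; the dotted line marks an FPKM of 1. HIF1A stands apart at 550.2 and 204.2, while EPAS1 and EGLN3 lie around or below 1 and no error can be drawn.

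**Figure D2:**
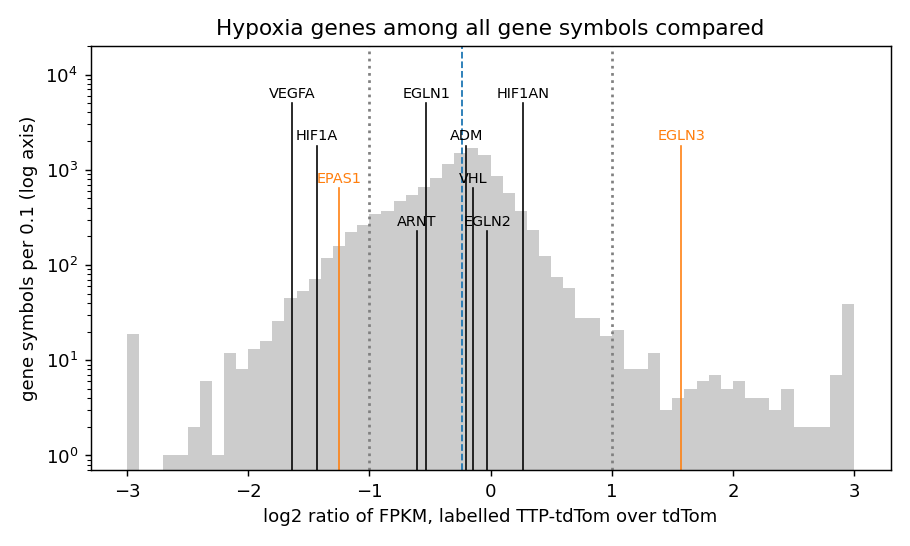
Number of gene symbols per 0.1 of log2 ratio (labelled TTP-tdTom over tdTom, 12511 symbols, log axis; the end bars hold all symbols beyond 3 in size), with the 10 hypoxia genes as vertical lines, black where compared and orange where the mean FPKM was under 1. VEGFA at -1.64 and HIF1A at -1.43 lie left of the dotted 2-fold line, and the dashed line marks the median of -0.24.

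HIF1A, which encodes the oxygen-labile subunit of HIF-1, was by far the most abundant of the 10. It had 550.2 FPKM in tdTom and 204.2 in the group labelled TTP-tdTom, a log2 ratio of -1.43 that left 37.1% of the tdTom level. In the tdTom group 99.2% of the symbols compared had a lower FPKM than HIF1A, and only 2.04% had a lower log2 ratio. Among the 1251 symbols of highest mean FPKM, 54.2 and above, the median log2 ratio was -0.22 and 5.52% were lower by at least 2-fold, while among the 1147 symbols of lowest transcript GC content, where HIF1A also belongs, these were -0.76 and 29.7%. Its GRCh37 position is chromosome 14, 62162119 to 62218878, under 3 RefSeq transcript names, and all positions of genes below are on the same build.

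A further pair of loci is printed with the same interval on chromosome 14, and the table does not give their strand. One carries the names HIF1A and HIF1A-AS2, the latter a noncoding antisense RNA of the HIF1A region. It had 86.0 FPKM in tdTom and 57.0 in the group labelled TTP-tdTom, a log2 ratio of -0.59. The other carries HIF1A-AS2 alone and had 57.9 and 32.9, a log2 ratio of -0.81. All loci of the interval were therefore lower in the labelled TTP-tdTom group, the one named HIF1A alone by most. With both loci named HIF1A added together, the log2 ratio of HIF1A was -1.28.

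EPAS1, which encodes HIF-2α, was near the lower end of what was read. It had 1.34 FPKM in tdTom and 0.564 in the group labelled TTP-tdTom, a log2 ratio of -1.25, at chromosome 2 from 46524541 to 46613842. A pseudocount of 1 on both values brought this ratio to -0.58, so its size depends on how low values are treated. HIF1A was 410-fold above EPAS1 in the tdTom group and 362-fold above it in the labelled TTP-tdTom group, so that nearly all α subunit mRNA read in these cells was HIF1A in either group.

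ARNT, the gene of the β partner, had an FPKM of 8.18 and 5.38 (chromosome 1, 150782181 to 150849244). Its log2 ratio of -0.61, or 65.7% of the tdTom level, was lower than that of most genes, with 21.8% of symbols below it. The mRNA of HIF1A was 67.2 times that of ARNT in the tdTom group and 38.0 times in the labelled TTP-tdTom group.

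The prolyl hydroxylase genes differed among themselves. EGLN2 was the highest of them, at 30.4 FPKM in tdTom and 29.8 in the group labelled TTP-tdTom (chromosome 19, 41281082 to 41333273), a log2 ratio of -0.026. Its locus also carries RAB4B, a vesicle traffic GTPase gene, and MIA, so this value is not that of EGLN2 alone. EGLN1, which encodes the main prolyl hydroxylase of HIF-1α, had 5.51 and 3.82 (chromosome 1, 231498832 to 231560790), a log2 ratio of -0.53 with 25.7% of symbols below it. A second locus named EGLN1 over the same interval had 0.263 and 0.949, a log2 ratio of 1.85, and with both added together EGLN1 was at -0.28. EGLN3, a hydroxylase gene that is itself induced by HIF, was barely read, at 0.169 and 0.502 (chromosome 14, 34393421 to 34420284). Its log2 ratio of 1.57 was in the opposite direction to those of EGLN1 and the α subunits, but both values were under 1, and a pseudocount of 1 reduced it to 0.36.

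The remaining negative regulators were close to, or above, their tdTom level. VHL, the substrate receptor of the ubiquitin ligase, had an FPKM of 6.54 and 5.91 (chromosome 3, 10183319 to 10195354), a log2 ratio of -0.15. HIF1AN had 16.6 and 20.0 (chromosome 10, 102295474 to 102314993), a log2 ratio of 0.27, and 93.6% of symbols had a lower ratio. The mRNA of HIF1A was 33.2 times that of HIF1AN in tdTom and 10.2 times in the group labelled TTP-tdTom, and 84.1 and 34.6 times that of VHL. EGLN2, VHL and ADM lay slightly below 0 as deposited and slightly above 0 (0.21, 0.092 and 0.038) once ratios were centred on the median gene. HIF1AN lay above 0 either way.

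The HIF target genes VEGFA and ADM differed. VEGFA had 10.7 FPKM in tdTom and 3.45 in the group labelled TTP-tdTom (chromosome 6, 43737946 to 43754368, 9 RefSeq names). Its log2 ratio of -1.64, or 32.2% of the tdTom level, was the lowest of the 10, and 1.03% of all symbols lay below it. ADM had 4.24 and 3.69 (chromosome 11, 10326642 to 10328923), a log2 ratio of -0.20 that lies at the middle of the distribution, with 54.8% of symbols below it. VEGFA exceeded ADM 2.52-fold in the tdTom group, while in the labelled TTP-tdTom group it was at 0.934 times the level of ADM.

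TTP binds AU-rich elements in the 3′UTR, with the heptamer UAUUUAU as their core, so exact copies were counted in 3′UTRs of GENCODE release 29, taking the longest one per gene. HIF1A and HIF1AN are shown here because each holds 3 copies while HIF1A was 2.69-fold lower and HIF1AN 1.21-fold higher. In the lines below, capitals mark the heptamer, and positions are counted from the first base after the stop codon.
HIF1A 3′UTR, bases 195 to 223: cuaaagcagucUAUUUAUauuuucuacau
HIF1A 3′UTR, bases 409 to 437: gcaccuuuuUAUUUAUUUAUuuuuggcua
HIF1AN 3′UTR, bases 5771 to 5799: gguggugguuaUAUUUAUuaugugauuua
HIF1AN 3′UTR, bases 10860 to 10888: uaaaaagugugUAUUUAUacucgaauuuu
HIF1AN 3′UTR, bases 11018 to 11046: aagauuuccugUAUUUAUaaacuuaauuu
In HIF1A the second stretch holds 2 overlapping heptamers and the 3′UTR is 1319 bases long, whereas the 3 copies of HIF1AN are spread over 11861 bases. The nonamer UUAUUUAUU, a longer form of the element, occurred 2 times in HIF1A and 0 times in HIF1AN.

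VEGFA held 3 heptamers and 1 nonamer in 1925 bases, and ARNT and VHL held 1 heptamer each, in 2316 and 2255 bases. EPAS1, EGLN1, EGLN2, EGLN3 and ADM held 0 in 3′UTRs of 569 to 2660 bases. At least 1 heptamer was thus present in 5 of the 10 genes, against 36.2% of the 11469 symbols with a matched 3′UTR. Both genes past 2-fold held 3 copies, as did HIF1AN with the highest ratio of the 8. Whether the heptamers or nonamers bear on the ratios of these genes was not tested. EPAS1, 2.38-fold lower, held 0. Over all matched symbols the median log2 ratio was -0.17 with 0 copies, -0.41 with 1 or 2 and -0.63 with 3 or more. The same classes differed in 3′UTR length, with medians of 928, 2329 and 4550 bases, and in GC content. By the median over protein-coding transcripts, 3 of the 10 genes and 24.0% of matched symbols held a copy, since VEGFA (14 transcripts) and ARNT then had 0.

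Ratios across all genes followed the base composition of the transcript. Symbols were ranked by transcript GC content and cut into 10 classes. The 1147 with the lowest GC content, 28.6 to 38.3%, had a median log2 ratio of -0.76 and 29.7% of them were lower by at least 2-fold, while in the class with the highest GC content the median was -0.088 and the share 0.872%. HIF1A has a transcript GC content of 37.2% and falls in the first of these classes. Relative to the median of that class its log2 ratio was -0.67, under 2-fold. VEGFA, with a GC content of 51.3%, lies in a class with a median of -0.15, in which 2.44% of symbols were lower by at least 2-fold, and its ratio relative to that class was -1.49. For ARNT it was -0.35, for EGLN1 -0.19 and for HIF1AN 0.53. After this subtraction 1 of the 8 genes, VEGFA, was lower by at least 2-fold, against 1.69% of the 11469 matched symbols, and 55.3% of the symbols still past 2-fold were lower. The comparison by GC content was chosen after seeing the data, and the part of GC content in the ratio of HIF1A was not tested.

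**Figure D3:**
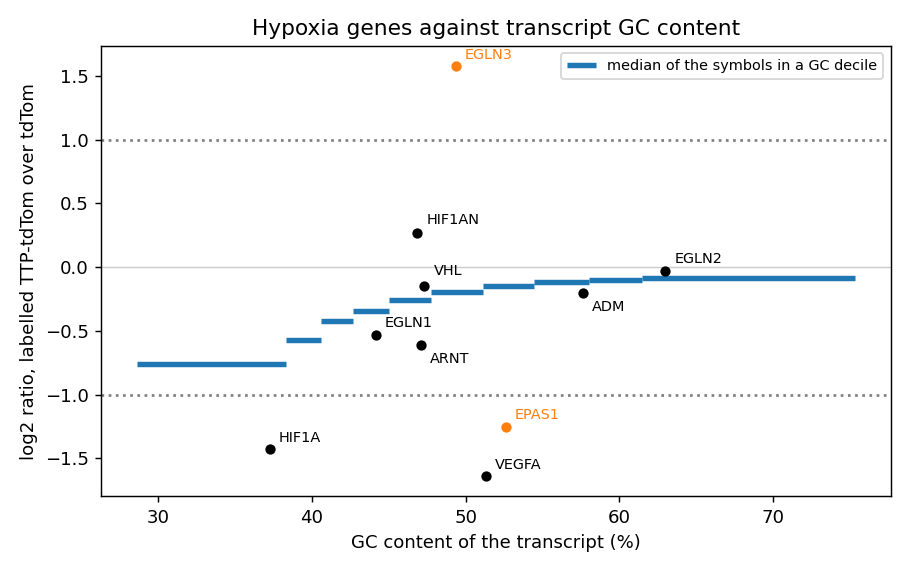
log2 ratio (labelled TTP-tdTom over tdTom) of the 10 hypoxia genes against the GC content of their transcript in percent, with the median of all matched symbols in each of the 10 GC classes as a blue bar; orange marks genes with a mean FPKM under 1 and dotted lines mark 2-fold. The bars climb from -0.76 to -0.088, and VEGFA at -1.64 lies farther below its bar than HIF1A at -1.43.

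Genes around the 10 were grouped in lists by role. Of 89 listed symbols that could be compared, the 10 genes themselves left out, 12 were lower and 1 higher by at least 2-fold. The 12 make up 13.5%, against the background of 8.30%. Relative to the medians of their GC classes, 2 of the 89 (2.25%) were lower by at least 2-fold, GBE1 and BNIP3, against 1.69% of all matched symbols. The other 10 then lay between -0.97 (ENO2) and -0.32 (CLOCK), so they were under 2-fold relative to genes of like GC content, while ING4 was at 1.53. Symbols with more heptamers had lower GC content, with medians of 51.5% at 0 copies and 40.1% at 3 or more. The part of either in these calls was not tested. The list medians below are descriptions.

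The VHL ubiquitin ligase joins VHL to elongins B and C, cullin 2 and RBX1. CUL2, which encodes the cullin scaffold, had 169.6 FPKM in tdTom and 77.2 in the group labelled TTP-tdTom, a log2 ratio of -1.14. CUL5, the scaffold gene of a related ligase family, was at -0.99 with 18.2 and 9.15. The elongin genes TCEB1 (343.6 and 294.7) and TCEB2 (19.1 and 15.2) had log2 ratios of -0.22 and -0.33, CUL3 one of -0.27 and RBX1, the RING subunit gene, one of -0.031. All 6 listed genes, with CUL3 and CUL5 as scaffolds of related ligases, were below 0, beside 79.9% of all symbols. Of the 6, 4 were below the median of all symbols. CUL2 alone, 1 of the 6, was lower by at least 2-fold, beside 8.30% of all symbols. Their median log2 ratio was -0.30, beside -0.24 for all symbols.

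Relatives of the HIF subunits in the bHLH-PAS family of transcription factors had the lowest median of the lists, -0.70 over 7 of 12 genes that could be compared. All 7 were below 0, beside 79.9% of all symbols, and 2 were lower by at least 2-fold, beside 8.30% of all symbols. AHR, the receptor for dioxin-like ligands that also pairs with ARNT, had an FPKM of 8.72 and 3.49, a log2 ratio of -1.32. CLOCK, a circadian factor gene, had 63.9 and 30.1, a log2 ratio of -1.09. ARNTL2, a circadian partner of CLOCK and the most abundant of the list, had 66.8 and 36.4 with a log2 ratio of -0.88, at a locus shared with C12orf70. The median GC content of the 7 was 45.4%. Their median log2 ratio was -0.46 after centring and -0.41 relative to their GC classes. HIF3A and ARNT2, the closest relatives of the α and β subunit genes, were hardly read, with 0.171 and 0.290 for HIF3A and 0.259 and 0.356 for ARNT2.

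Among 20 cofactors and modulators of HIF-1α, 0 were lower and 1 higher by at least 2-fold, beside 8.30% and 1.22% of all symbols. The median log2 ratio of the 20 was -0.32, beside -0.24 for all symbols. It was -0.083 after centring and -0.066 relative to GC classes. GNB2L1, whose product RACK1 promotes oxygen-independent turnover of HIF-1α, was the most abundant, at 1475 and 1232.5 (log2 ratio -0.26). The chaperone gene HSP90AA1 followed at 865.4 and 684.3 (log2 ratio -0.34). The one gene past 2-fold was ING4, which encodes a PHD-finger repressor of HIF activity, with 1.47 and 3.83, a log2 ratio of 1.38.

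The HIF targets in glycolysis had a median log2 ratio of -0.29 over 19 genes, with 2 lower by at least 2-fold. Their median GC content was 55.7%. The median log2 ratio of these 19 was -0.050 after centring and -0.17 relative to GC classes. PDK1, whose kinase inhibits pyruvate dehydrogenase, had 9.84 and 4.52, a log2 ratio of -1.12. ENO2, an enolase gene, had 16.3 and 7.53, also -1.12. The most abundant, GAPDH and ALDOA, had log2 ratios of -0.29 and -0.098, with 2962 and 2425 for GAPDH and 337.7 and 315.5 for ALDOA. Of 30 other HIF targets 5 were lower by at least 2-fold, and their median was -0.44, which was -0.20 after centring and -0.22 relative to GC classes. GBE1, the glycogen branching enzyme gene, had the lowest ratio, -1.51, with 18.4 and 6.49. ERO1L, an oxidase gene of disulfide formation, had 32.6 and 12.1 (-1.42), PLOD2, a collagen lysyl hydroxylase gene, 40.2 and 16.1 (-1.32), and BNIP3, a mitophagy receptor gene, 77.3 and 31.8 (-1.28). The fifth was INSIG2, a gene of sterol regulation, at -1.19, which falls outside the rule for named genes and was chosen after its value was seen. TFRC, the transferrin receptor gene and among the most abundant of the list, had 155.5 and 113.5, a log2 ratio of -0.45. Over both target lists, 44 of 48 distinct genes were below 0, beside 79.9% of all symbols, and 7 were lower by at least 2-fold, beside 8.30% of all symbols.

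In the VEGF and adrenomedullin system 2 of the 8 genes that could be compared were lower by at least 2-fold, beside 8.30% of all symbols, with a median log2 ratio of -0.54. This median was -0.31 with loci summed, -0.24 relative to GC classes and -0.0069 with no minimum FPKM. CALCRL, the receptor gene of adrenomedullin, had 1.51 and 0.528 (-1.52). It passed the FPKM minimum only through its tdTom value, and the other value was under 1. NRP1, the gene of the VEGF co-receptor neuropilin 1, had 215.2 and 107.1 (-1.01). VEGFB, a relative of VEGFA and the most abundant of the list, was at 275.2 and 275.0 (log2 ratio -0.0015), at a locus shared with FKBP2. That value is therefore not of VEGFB alone. Of the 8 genes 5 were below the median of all symbols, and the highest was RAMP1, which encodes a receptor activity-modifying protein that pairs with the CALCRL product, at -5.5e-05.

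**Figure D4:**
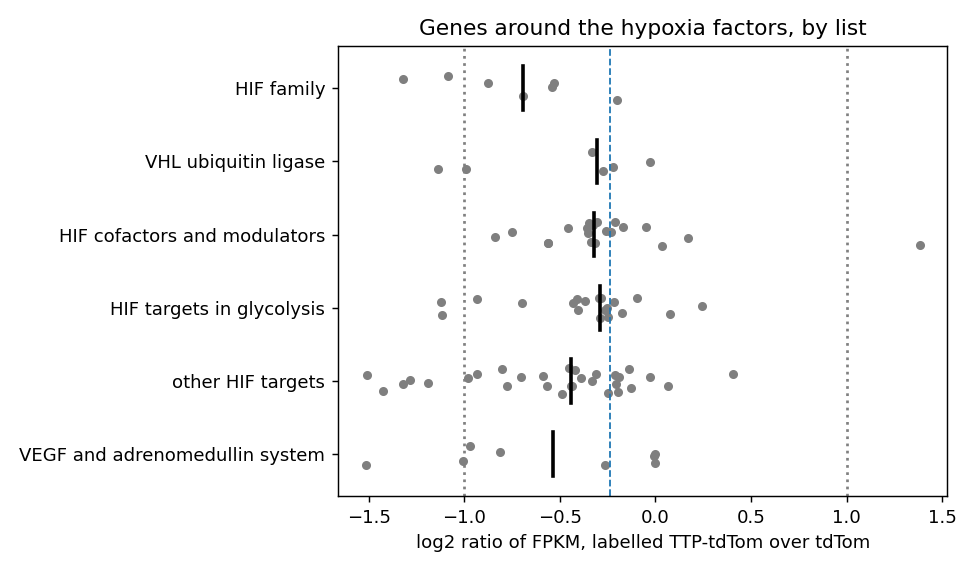
log2 ratio (labelled TTP-tdTom over tdTom) of the genes in the 6 lists around the hypoxia factors, 1 grey point per gene that passed the FPKM minimum, with a small vertical scatter for legibility, and the median of each list as a black bar. The dashed line is the median of all symbols, -0.24, dotted lines mark 2-fold, and the single point drawn right of the upper 2-fold line is ING4.

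HIF binds DNA at ACGTG or GCGTG, and windows from 250 bases before to 50 after the annotated gene start (RefSeq, GRCh38.p14) were searched on both strands. ACGTG occurred in 21.4% of all 35116 windows and GCGTG in 36.5%. ACGTG occurred in the EGLN1 window and in 1 of 2 EGLN2 windows, and GCGTG in those of EPAS1 and ADM and in 1 of 2 HIF1A windows. The windows of ARNT, EGLN3 and HIF1AN held neither. EGLN1 is shown because its product acts on HIF-1α and the gene is also a HIF target. The windows of VHL and VEGFA were not analysed here. On the minus strand of GRCh38.p14, in the window chr1:231422238-231422537, the motif in capitals starts 13 bases before the gene start.
EGLN1 promoter: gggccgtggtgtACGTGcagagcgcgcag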

How the data were processed

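Strand-specific paired-end RNA-Seq libraries of 6 samples were aligned by the authors with Tophat2 (TopHat2 2.0.13 in the submitters' processing notes) to Hs37D5, which is GRCh37 with decoy sequence, and transcripts were compared with Cufflinks 2.2.1. The authors' deposited FPKM values, 1 per group at each of 406165 loci, are scaled to transcript length and library size. The table's fold change, test statistic, p, q and significance columns hold the authors' own comparison and were not used. Single-sample values were not analysed here, so the planned limma fit could not be made.

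Where loci shared a symbol, the one carrying most RefSeq names was taken, then the one with the highest summed FPKM. Overlapping loci share 1 printed interval, and starts are counted from 1. Some symbols (971 of those compared) share a locus. Of the listed genes, AHRR (with PDCD6), FIGF (with PIR) and P4HTM (with WDR6) do so too, and are named only for this. Their values, not of the gene alone, enter the list counts and medians. The log2 ratio is the log2 of labelled TTP-tdTom over tdTom FPKM. Symbols above 0 in both groups with a mean FPKM of at least 1 were compared, and a call is a ratio past 2-fold, with no test. All 10 members were named, with, in each list, up to 4 symbols past 2-fold in each direction and the 2 with the highest tdTom FPKM, and all ligase genes and ZFP36. HIF3A, ARNT2, RAMP1, CA9, EPO, ANGPTL4, DDIT4, LOX and INSIG2 fall outside this rule and were chosen after their values were seen. A gene that the rule names is not reported here. Members and lists were chosen with earlier results of these data known. Symbols were matched to GENCODE release 29 by name or synonym (91.7% of those compared). For each gene the protein-coding transcript with the longest 3′UTR was used. Functions were tested on simulated data. Python 3.11.15, numpy 2.4.6, pandas 2.3.3 and matplotlib 3.10.9 were used.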

Additional observations from a re-analysis of the deposited data

Results flagged for a closer look

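At 3 loci printed over the intervals of the hypoxia genes, and not used for them, the FPKM was above that of the tdTom group. A second locus named EGLN1 had 0.949 in the group labelled TTP-tdTom and 0.263 in the tdTom group. A locus without a symbol over HIF1AN had 1.36 and was listed at 0 in the tdTom group. Another without a symbol, over EGLN2, had 0.717 and 0.560. No replicate values stand behind these differences.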

How the results depend on the processing

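No paired analysis was possible because the table holds 1 value per group; the fits with a replicate block and without each replicate were not run for the same reason. HIF1A and VEGFA remained lower by at least 2-fold under both pseudocounts, centring, rescaling to the same FPKM sum (a shift of 0.055) and summed loci. Of the 2, 1 was left under each of 2 settings chosen after seeing the data: VEGFA after subtracting GC class medians, and HIF1A at a mean FPKM of at least 10, since VEGFA had a mean of 7.08 and was not compared. At 1.5-fold ARNT was also past the threshold, 3 in all, beside 22.7% of all symbols lower by at least 1.5-fold. With no minimum EPAS1 was also lower by at least 2-fold, while EGLN3 was then 1 member higher by at least 2-fold. In that setting 8.52% of all symbols were lower and 7.25% higher by at least 2-fold. Of all symbols, 1039 were lower and 153 higher by at least 2-fold. These were 673 and 93 with a pseudocount of 1, and 2838 and 297 at 1.5-fold. With no minimum they were 1772 and 1508 among 20805 symbols (54.0% of these calls lower). At a mean FPKM of at least 10 they were 539 and 21 among 5469 symbols. Centring left 484 lower. Summed loci gave 445 higher among 13466 symbols, and GC classes left 194 lower among the 11469 matched symbols, so these counts too cover other sets of symbols. List medians after centring were -0.46 (HIF relatives), -0.065 (VHL ligase), -0.083 (cofactors), -0.050 (glycolysis), -0.20 (other targets) and -0.30 (VEGF and adrenomedullin), and after GC subtraction -0.41, -0.13, -0.066, -0.17, -0.22 and -0.24. The VEGF and adrenomedullin median was -0.44 with a pseudocount of 1, -0.31 with summed loci and -0.0069 with no minimum. Of the 89 listed genes, 12 were lower by at least 2-fold, 6 after centring, 26 at 1.5-fold and 2 after GC subtraction, alternatives chosen after seeing the data. The shares of all symbols lower under the same settings were 8.30%, 3.87%, 22.7% and 1.69%. For EGLN2 rescaling gave 0.029. Depth could not be judged, since FPKM values hold no counts.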

Other observations

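Several genes used as markers of hypoxia were hardly read in these cells, for which the labels name no hypoxic step. CA9, a carbonic anhydrase gene and textbook HIF-1 target, had 0.0542 FPKM in tdTom and 0.214 in the group labelled TTP-tdTom. EPO, the erythropoietin gene, had 0.352 and 0.276, ANGPTL4 0.393 and 0.479 and DDIT4 0.690 and 0.796. LOX, the lysyl oxidase gene, had 1.25 and 0.583. These genes were picked after their values were seen. Of 44 genes in the list of other HIF targets that the table holds, 14 were below the level needed for a comparison, EGLN3 among them. The other 30 were compared, among them BNIP3 at 77.3 and 31.8 and PLOD2 at 40.2 and 16.1.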
